A study of Mus musculus with 6 samples.

Results

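The 30 genes described here build, take up and move cholesterol, and were read from the liver of Fra-1hep mice and of wild-type mice. They were chosen by name, in the order of the pathway, from the probes whose RefSeq accession belongs to each gene, and each gene was represented by its brightest probe. All 30 were measured and all 30 passed the filter on dim probes, among 22848 genes tested. Some of the 22848 are known by accession alone, without a gene symbol. Fra-1hep mice are C57BL/6J animals with overexpression of Fra-1, an AP-1 subunit encoded by Fosl1, that is restricted to hepatocytes; the labels do not name the promoter or line that drives the transgene, and the RNA is of whole liver. On 5 arrays, RNA of a single Fra-1hep mouse (Cy5) was hybridised together with 1 wild-type pool (Cy3, livers of 5 chow-fed C57BL/6J controls). On a sixth array the dyes were exchanged, with Cy3 on a pool of Fra-1hep RNA and Cy5 on wild-type pool RNA; the design text instead counts 6 single Fra-1hep mice, and the sample labels were followed. All animals were 26 to 28 weeks old and untreated. The mice that entered the Fra-1hep pool are not given in the sources used here, and the wild-type pool is 1 sample, so the spread among wild-type mice is unknown.

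Cholesterol is built from acetyl-CoA through mevalonate and isoprenoid diphosphates to squalene, which is closed to lanosterol and trimmed to cholesterol. When sterol in the endoplasmic reticulum is low, SCAP carries the transcription factor SREBP-2 (encoded by Srebf2) to the Golgi, where it is cut and released to switch on the genes of this pathway; when sterol is plentiful, INSIG1 or INSIG2 holds the SCAP complex back. Liver is a main site of this synthesis, and it also takes up lipoprotein cholesterol, releases it from lysosomes through NPC1 and NPC2, and stores it as ester through SOAT1 and SOAT2.

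All values are log2 ratios of Fra-1hep over wild type, with the sign of the dye-swapped array turned, unless a signal is named. Of 62976 spots per array, 0 were saturated, and Fra-1hep RNA lit 48.5 to 58.9% of probes well above background. The only Fosl1 probe was above background on 0 of 6 arrays in both channels, so it does not check the labels. All 11 hepatocyte markers were well above background on all 6 arrays in both channels. The arrays of mice 2 and 3 differed by 0.90 times the spread expected from replicate spots, against 1.44 to 1.77 times for the 9 other pairs of mice, and they were averaged to 1 sample, which leaves 4 Fra-1hep samples. Mice 1 and 2 lay on the first slide, mice 3 and 4 and the dye-swapped array on the second, and mouse 5 alone on the third, so mouse 5 and its slide cannot be told apart. Nothing in the labels says more of the mice than their number. The p-values rest on the spread between these samples, which limma draws towards the spread over all genes.

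Of the 30 genes, 5 passed the test, and a gene that did not pass is not shown to be unchanged. Insig2, Sc5d, Cyp51 and Hsd17b7 fell in Fra-1hep liver and Mvk rose, while the other 25 genes did not pass the test. In the fit over both dye orientations the sterol sensor partner Insig2 had the largest fall, 1.84-fold (log2 -0.88, SE 0.10, n = 4). Mevalonate kinase rose 1.46-fold (log2 0.55, SE 0.09). For Insig2 the mean of the mice was -0.56, and the dye-swapped array, which has as much weight, was at -1.20. On the mouse arrays alone Dhcr7 (-0.71), Sc5d (-0.68) and Idi1 (-0.65) lay lower than Insig2 (-0.56). The 5 changed genes are 16.7% of the 30, against 12.5% of all genes tested; 4 fell (13.3%, against 6.51% of all genes) and 1 rose (3.33%, against 5.97%), at an adjusted p under 0.05 with limma. The median of the 30 estimates was -0.10, against 0.01 over all genes tested, and 21 of them were negative; with median centring in place of loess the median of the 30 was 0.04, against 0.08 over all genes. The values of all 30 genes on all 6 arrays are drawn in pathway order.

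**Figure D1:**
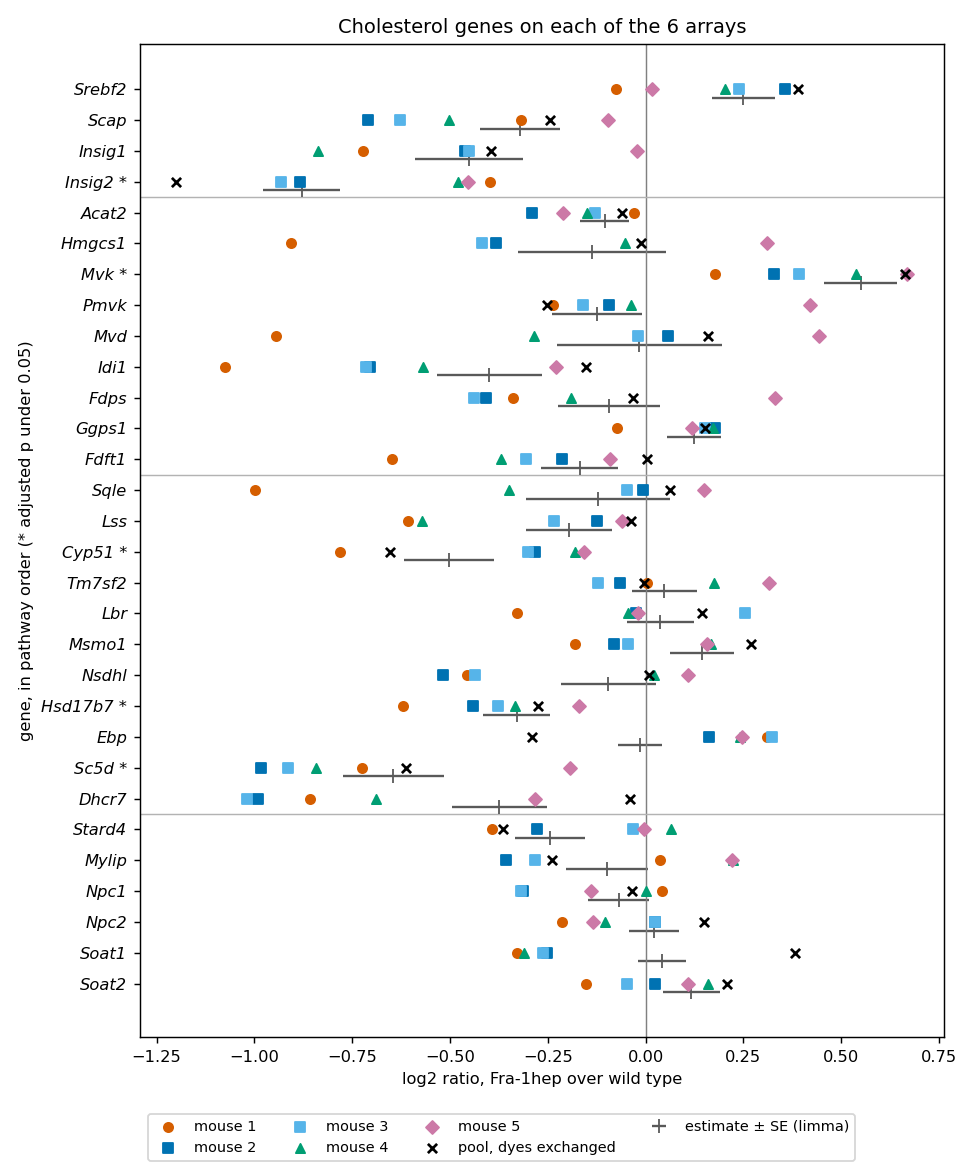
Log2 ratio of Fra-1hep over wild type (x axis) for the 30 cholesterol genes (y axis, pathway order, lines between the 4 roles). Each symbol is 1 array, the dye-swapped array turned; the grey mark below each gene is the limma estimate with its SE, and a star marks an adjusted p under 0.05. Mouse 1 (circles) lies leftmost in many of the enzymes and mouse 5 (diamonds) rightmost, and Insig2, Cyp51, Hsd17b7 and Sc5d lie left of 0 and Mvk right of it on every array.

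Among the regulators, Insig2 was the one that changed. Its ratio was -0.40 in mouse 1, -0.88 in mouse 2, -0.93 in mouse 3, -0.48 in mouse 4, -0.46 in mouse 5 and -1.20 on the dye-swapped array. The Agilent processed signal, in arbitrary units, was 2946, 2215, 2199, 2633 and 2452 in Fra-1hep mice 1 to 5 and 1799 in the Fra-1hep pool, against 3862, 4351, 4307, 3756 and 3371 in the wild-type pool beside them and 4062 beside the Fra-1hep pool. The highest Fra-1hep signal lay below the lowest wild-type signal, so the groups did not overlap; the wild-type values are repeat readings of 1 pool. The adjusted p was 0.00185, and a further Insig2 probe gave -0.75 (SE 0.09, adjusted p = 0.00208 over single probes).

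Insig1, the paralogue whose own transcription follows SREBP-2, had ratios of -0.72, -0.46, -0.45, -0.84 and -0.02 in mice 1 to 5 and -0.39 on the dye-swapped array. All 6 arrays were below 0, with mouse 5 near it, and the estimate of -0.45 (SE 0.14, n = 4) did not pass (adjusted p = 0.0758). It passed without mouse 5 (-0.53, adjusted p = 0.0115). Scap was likewise below 0 on all 6 arrays, from -0.71 to -0.10, and did not pass (-0.32, SE 0.10, adjusted p = 0.0860). Srebf2 itself was above 0 on 5 of 6 arrays, with an estimate of 0.25 that did not pass (SE 0.08, adjusted p = 0.0902), and its further probe gave -0.01.

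The promoters of the changed genes and of Hmgcs1 are shown to set what their sequence shares beside these values. Each is the 300-base window from RefSeq (GRCm38.p6), 250 bases before to 50 after an annotated transcription start, written along the strand of the gene. Capitals mark letters matched on either strand by a sterol regulatory element (TCACNCCAC, the site SREBP binds), an E-box with the letters CACGTG, the box bound by NF-Y and named for its letters CCAAT, the box bound by Sp1 (GC box, GGGCGG) or an AP-1 site (TGANTCA, the site of Fra-1 dimers); no matches overlap in these windows. Insig2 has 3 annotated starts, all on the minus strand of chromosome 1, and the one furthest upstream holds 3 CCAAT boxes, while each of the others holds 1 GC box and no CCAAT box.
Insig2, chr1:121332540-121332839, minus strand: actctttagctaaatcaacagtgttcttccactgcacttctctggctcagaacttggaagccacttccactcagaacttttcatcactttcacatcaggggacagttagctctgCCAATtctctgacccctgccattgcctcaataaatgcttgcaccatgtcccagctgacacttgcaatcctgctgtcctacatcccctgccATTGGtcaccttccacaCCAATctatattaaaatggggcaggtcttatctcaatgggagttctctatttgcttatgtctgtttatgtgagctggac
Insig2, chr1:121327975-121328274, minus strand: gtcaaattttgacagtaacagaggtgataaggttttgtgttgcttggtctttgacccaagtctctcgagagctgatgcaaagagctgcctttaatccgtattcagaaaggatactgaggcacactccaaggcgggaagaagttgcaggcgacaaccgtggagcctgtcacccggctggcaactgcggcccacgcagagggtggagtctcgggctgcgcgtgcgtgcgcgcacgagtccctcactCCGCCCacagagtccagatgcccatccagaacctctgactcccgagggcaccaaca
Insig2, chr1:121327629-121327928, minus strand: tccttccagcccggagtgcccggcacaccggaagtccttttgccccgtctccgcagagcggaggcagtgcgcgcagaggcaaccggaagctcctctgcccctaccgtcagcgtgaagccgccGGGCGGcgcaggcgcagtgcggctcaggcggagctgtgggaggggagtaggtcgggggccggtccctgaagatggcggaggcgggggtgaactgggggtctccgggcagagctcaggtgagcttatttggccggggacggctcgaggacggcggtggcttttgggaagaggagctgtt
Mvk, chr5:114444019-114444318, plus strand: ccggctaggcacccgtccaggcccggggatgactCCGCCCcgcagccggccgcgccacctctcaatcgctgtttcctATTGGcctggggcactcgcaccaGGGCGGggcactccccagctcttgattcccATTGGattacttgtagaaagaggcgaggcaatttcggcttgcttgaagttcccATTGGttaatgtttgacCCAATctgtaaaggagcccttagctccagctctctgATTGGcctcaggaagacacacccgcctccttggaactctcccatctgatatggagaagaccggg
Cyp51, chr5:4104648-4104947, minus strand: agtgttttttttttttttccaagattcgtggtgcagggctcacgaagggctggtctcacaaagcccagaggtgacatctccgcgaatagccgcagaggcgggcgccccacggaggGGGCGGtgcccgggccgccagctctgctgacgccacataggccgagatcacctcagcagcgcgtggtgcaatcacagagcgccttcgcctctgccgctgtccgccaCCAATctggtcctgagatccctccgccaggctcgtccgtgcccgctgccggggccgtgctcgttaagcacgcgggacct
Hsd17b7, chr1:169969156-169969455, minus strand: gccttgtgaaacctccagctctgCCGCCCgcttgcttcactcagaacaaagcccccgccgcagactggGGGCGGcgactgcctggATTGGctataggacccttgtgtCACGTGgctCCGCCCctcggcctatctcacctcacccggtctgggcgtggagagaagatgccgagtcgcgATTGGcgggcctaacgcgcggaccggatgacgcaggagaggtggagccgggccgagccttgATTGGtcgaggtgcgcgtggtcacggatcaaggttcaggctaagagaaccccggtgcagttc
Sc5d, chr9:42264251-42264550, minus strand: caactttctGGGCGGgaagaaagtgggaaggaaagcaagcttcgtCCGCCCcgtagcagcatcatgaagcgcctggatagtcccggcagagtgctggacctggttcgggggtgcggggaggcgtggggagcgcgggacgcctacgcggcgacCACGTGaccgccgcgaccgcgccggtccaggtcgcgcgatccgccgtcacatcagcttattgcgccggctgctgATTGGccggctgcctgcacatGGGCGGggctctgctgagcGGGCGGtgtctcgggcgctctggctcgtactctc
Hmgcs1, chr13:119690101-119690400, plus strand: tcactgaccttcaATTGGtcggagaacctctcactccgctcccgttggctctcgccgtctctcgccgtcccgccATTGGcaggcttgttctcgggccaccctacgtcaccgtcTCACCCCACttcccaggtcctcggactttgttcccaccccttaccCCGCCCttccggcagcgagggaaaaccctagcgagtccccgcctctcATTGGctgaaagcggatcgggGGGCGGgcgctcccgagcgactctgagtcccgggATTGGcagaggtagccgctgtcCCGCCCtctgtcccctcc

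The Mvk window, of the gene that rose, holds 5 CCAAT boxes and 2 GC boxes. Among the genes that fell, Cyp51 holds 1 of each, Hsd17b7 has 3 CCAAT boxes, 3 GC boxes and 1 E-box, and Sc5d has 1 CCAAT box, 4 GC boxes and 1 E-box. Hmgcs1, which did not pass the test, is shown as the only cholesterol gene whose window holds the letters TCACNCCAC, between a CCAAT box and a GC box.

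Windows were found for 24 of the 30 genes (not for Fdps, Fdft1, Sqle, Stard4, Npc1 and Soat2). A CCAAT box lay in at least 1 window of 22 of the 24 genes (91.7%), against 41.1% of 27025 genes with a window, and a GC box likewise in 22 of 24 (91.7%), against 38.2%. An E-box lay in 5 of 24 (20.8%, against 8.09%), the sterol regulatory element in 1 of 24 (4.17%, against 1.44%) and the AP-1 site in 3 of 24 (12.5%, against 8.97%), namely Lbr, Msmo1 and Dhcr7, which did not pass the test. These are matches of letters, not sites shown to be bound, and genes with several windows had more chances of a match. The 27025 genes were not limited to genes measured in this liver, whereas all 24 were measured. Shares among the measured genes were not computed.

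**Figure D2:**
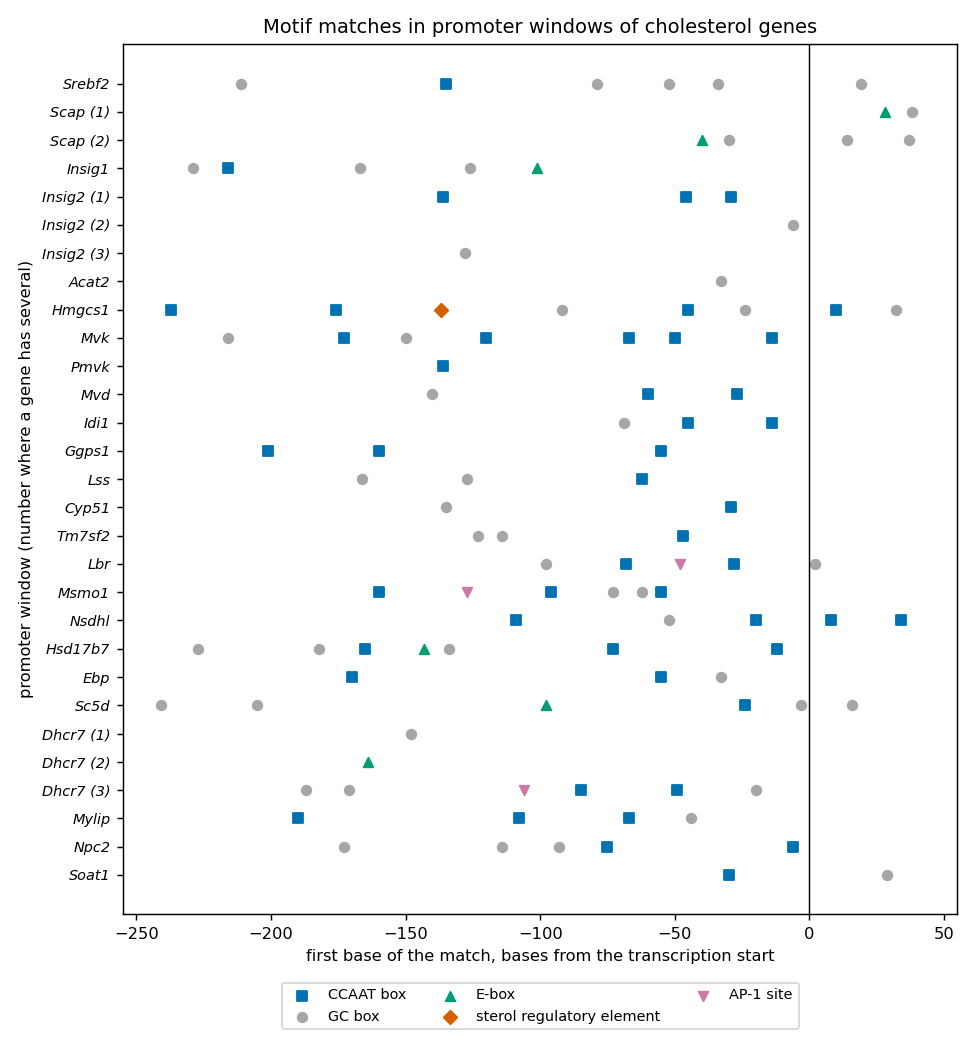
Position of motif matches (x axis, first base of the match in bases from the transcription start) in the promoter windows of the cholesterol genes that hold at least 1 match (y axis, pathway order, numbered where a gene has several windows). CCAAT boxes (squares) occur in 22 of 24 genes, mostly upstream of the start, and the single sterol regulatory element (diamond) is that of Hmgcs1.

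In the first arm of the pathway, from acetyl-CoA to squalene, Mvk was the only one of 9 genes that changed (11.1%, against 12.5% of all genes). Mvk, which phosphorylates mevalonate, had ratios of 0.18, 0.33, 0.39, 0.54 and 0.67 in mice 1 to 5 and 0.66 on the dye-swapped array. Its signal was 6249, 7352, 8155, 6384 and 6423 in Fra-1hep mice 1 to 5 and 7134 in the Fra-1hep pool, against 5014, 5281, 5867, 4285 and 4071 in the wild-type pool beside them and 4646 beside the Fra-1hep pool. The Fra-1hep signal was the higher one on all 6 arrays, and every Fra-1hep signal lay above every wild-type signal (adjusted p = 0.00920). A further Mvk probe gave 0.47 (SE 0.07, adjusted p = 0.00395 over single probes).

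Hmgcs1 and Mvd, which act before and after Mvk, differed widely between mice, while the SD between samples of Acat2 (0.09) and Ggps1 (0.11) in the same arm lay below the median of all genes (0.12). Hmgcs1, the HMG-CoA synthase that starts the committed route, was at -0.91 in mouse 1, -0.38 in mouse 2, -0.42 in mouse 3, -0.05 in mouse 4, 0.31 in mouse 5 and -0.01 on the dye-swapped array (estimate -0.14, SE 0.19, adjusted p = 0.702). Mvd, the decarboxylase that ends the mevalonate steps, was at -0.95, 0.06, -0.02, -0.28 and 0.44 in mice 1 to 5 and 0.16 on the dye-swapped array (-0.02, SE 0.21, adjusted p = 0.974). For both genes mouse 1 was the lowest and mouse 5 the highest sample.

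Idi1, the isomerase that makes the reactive isoprenoid unit, was below 0 on all 6 arrays, at -1.08, -0.70, -0.71, -0.57 and -0.23 in mice 1 to 5 and -0.15 on the dye-swapped array. Its estimate of -0.40 (SE 0.13) did not pass (adjusted p = 0.102). Fdft1, squalene synthase, lay between -0.65 and -0.09 in the mice and at 0.00 on the dye-swapped array (-0.17, adjusted p = 0.327), and its further probe gave 0.03. Fdps, farnesyl diphosphate synthase, stood at 0.33 in mouse 5 and between -0.44 and -0.03 on the other arrays (-0.09, adjusted p = 0.706). The remaining genes of this arm were Acat2, the thiolase of the first step (-0.11, adjusted p = 0.336), Pmvk, which adds the second phosphate to mevalonate (-0.12, adjusted p = 0.548), and Ggps1, which makes the lipid anchor of small GTPases (0.12, adjusted p = 0.297).

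In the second arm, from squalene to cholesterol, 3 of 11 genes fell (27.3%, against 6.51% of all genes) and 0 rose (against 5.97%). Sc5d, the lathosterol desaturase, was at -0.72, -0.98, -0.92, -0.84 and -0.19 in mice 1 to 5 and -0.61 on the dye-swapped array. It was below 0 on all 6 arrays, with mouse 5 nearest to 0, and was 1.56-fold lower in Fra-1hep liver (-0.64, SE 0.13, n = 4, adjusted p = 0.0181). Its signal was 11760 to 14940 in Fra-1hep liver, against 17220 to 26470 in the wild-type pool, with no overlap.

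Cyp51, the lanosterol demethylase and the only cytochrome P450 of this route, was at -0.78, -0.28, -0.30, -0.18 and -0.16 in mice 1 to 5 and -0.65 on the dye-swapped array, and was 1.42-fold lower (-0.50, SE 0.12, adjusted p = 0.0293). Mouse 1 and the array of pools were lower than the other mice. Its signal was 371 to 728 in Fra-1hep liver, against 672 to 921 in the wild-type pool, so the groups overlapped across arrays though not on any 1 array.

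Hsd17b7, a keto reductase in the removal of sterol methyl groups, was at -0.62, -0.44, -0.38, -0.33 and -0.17 in mice 1 to 5 and -0.28 on the dye-swapped array, and was 1.26-fold lower (-0.33, SE 0.09, adjusted p = 0.0443). A further Hsd17b7 probe gave -0.26, which did not pass over single probes (adjusted p = 0.0578). Hsd17b7 did not pass without mouse 4 (adjusted p = 0.0708), and without mice 2 and 3 together neither Hsd17b7 (0.0896) nor Cyp51 (0.0572) did. With median centring in place of loess, Hsd17b7 was at -0.19 (adjusted p = 0.208) and Cyp51 at -0.38 (0.0960), and with a normexp offset of 10 they did not pass either (0.0800 for Hsd17b7 and 0.0558 for Cyp51). In all, Hsd17b7 lost its call in 6 of 18 alternatives, Cyp51 in 5 and Sc5d in 2. The Agilent processed signals and the deposited table, counted as 2 of the 18, hold nearly the same values. Both losses of Sc5d came from these 2. From the Agilent processed signals, Sc5d (adjusted p = 0.0864), Cyp51 (0.108) and Hsd17b7 (0.0990) did not pass.

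The second slide holds both dye orientations and gave -0.95 for Insig2, -0.75 for Sc5d, -0.45 for Cyp51, -0.32 for Hsd17b7 and 0.56 for Mvk (mean of mice 3 and 4, averaged with the dye-swapped array).

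Of the other genes of this arm, Dhcr7, the dehydrocholesterol reductase, differed most between the mice and the dye-swapped array. It was at -0.86, -0.99, -1.02, -0.69 and -0.28 in mice 1 to 5 but at -0.04 on the dye-swapped array, and the estimate of -0.37 (SE 0.12) did not pass (adjusted p = 0.0931). Sqle, squalene epoxidase, was at -0.999 in mouse 1, -0.01 in mouse 2, -0.05 in mouse 3, -0.35 in mouse 4, 0.15 in mouse 5 and 0.06 on the dye-swapped array (-0.12, SE 0.19, adjusted p = 0.733). Lss, which closes the sterol ring, was below 0 on all 6 arrays (-0.61 to -0.04) and did not pass (-0.20, SE 0.11, adjusted p = 0.313).

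Lbr and Tm7sf2 encode sterol reductases of the same step. Lbr was at -0.33, -0.03, 0.25, -0.04 and -0.02 in mice 1 to 5 and 0.15 on the dye-swapped array (0.04, SE 0.09, adjusted p = 0.826). Tm7sf2 was at 0.00, -0.06, -0.12, 0.17 and 0.31 in mice 1 to 5 and 0.00 on the dye-swapped array (0.05, SE 0.08, adjusted p = 0.772). Both spanned 0, and neither passed. The demethylation genes Msmo1 (0.14, adjusted p = 0.306) and Nsdhl (-0.10, adjusted p = 0.674) did not pass either. Ebp, the sterol isomerase, was at 0.16 to 0.32 in the 5 mice and at -0.29 on the dye-swapped array, with an estimate of -0.01 (SE 0.06, adjusted p = 0.904).

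Of 6 genes of uptake, trafficking and esterification, 0 passed the test, and their estimates ran from -0.24 for Stard4 to 0.12 for Soat2. Stard4, a carrier of cholesterol between membranes, did not pass (-0.24, SE 0.09, adjusted p = 0.129). Mylip, a ubiquitin ligase that removes lipoprotein receptors and is switched on by LXR, was above 0 on 3 arrays and below 0 on 3 (-0.10, adjusted p = 0.602). The lysosomal exporters Npc1 (-0.07, SE 0.08, adjusted p = 0.635) and Npc2 (0.02, SE 0.06, adjusted p = 0.873) had the smallest estimates of the group beside Soat1.

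Soat2, the sterol ester synthase of hepatocytes, was at -0.15, 0.02, -0.05, 0.16 and 0.11 in mice 1 to 5 and 0.21 on the dye-swapped array (0.12, SE 0.07, adjusted p = 0.363). Soat1, the widely expressed isoform and the one macrophages use, was at -0.33, -0.25, -0.26 and -0.31 in mice 1 to 4 and 0.38 on the dye-swapped array; its spot on the array of mouse 5 was marked as an outlier and left out of the fit (0.04, SE 0.06, n = 3, adjusted p = 0.729). Soat1 was dim, with signals of 22.9 to 45.2 for Fra-1hep RNA, against 22.1 to 63.9 for wild-type RNA on those 5 arrays. Of 11 tested markers of macrophages and Kupffer cells, 10 fell and 0 rose, with sample medians of -0.85 to -0.42, and all 11 were above background on all 6 arrays. In bulk liver, fewer cells of a type and less RNA per cell cannot be told apart, and the part of macrophages in the values of Soat1 was not tested.

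The second feature of these genes was their spread between mice. The SD of the log2 ratio between the 4 Fra-1hep samples had a median of 0.23 over the 29 genes with a value in each, against 0.12 over 22826 genes tested. It lay above the upper quartile of all genes (0.17) for 23 of 29. All 29 belong to the brighter 11414 genes, among which the median SD was 0.12 as well, and 21 of 29 lay above the upper quartile there (0.17). The widest were Mvd (0.58), Hmgcs1 (0.52) and Sqle (0.51), whose SDs were larger than those of 99.1, 98.8 and 98.7% of genes tested. The smallest was that of Ebp (0.03).

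**Figure D3:**
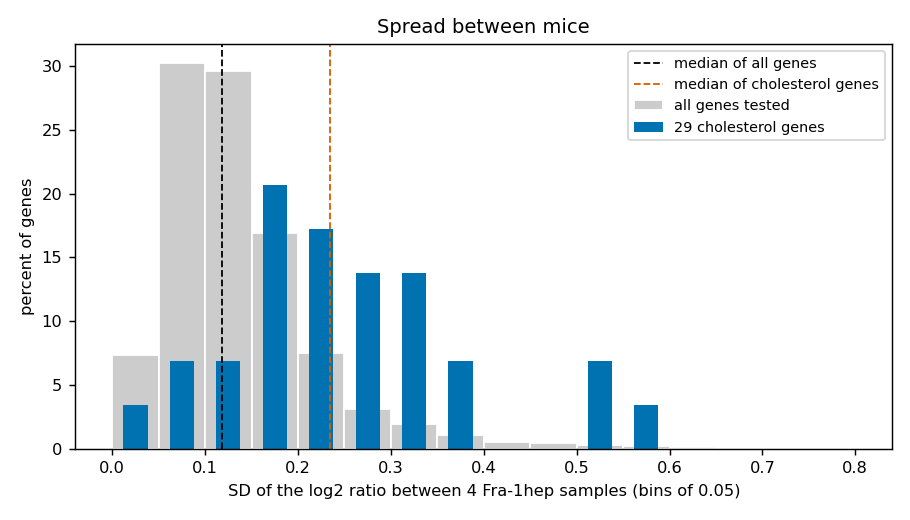
Distribution of the SD of the log2 ratio between the 4 Fra-1hep samples (x axis, bins of 0.05; y axis, percent of genes) for the 29 cholesterol genes with 4 values (blue) and all 22826 genes with 4 values (grey, drawn up to 0.8). Dashed lines give the medians, 0.23 for the cholesterol genes and 0.12 for all genes.

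The samples took the same places in most enzymes. Of the 20 enzymes of synthesis, mouse 1 was the lowest of the 4 samples in 13 and mouse 5 the highest in 15, against 28.0% and 26.8% of all genes. The median over the 20 enzymes was -0.53 in mouse 1, -0.19 in mice 2 and 3, -0.16 in mouse 4 and 0.11 in mouse 5. It was -0.02 on the dye-swapped array. The median of all genes lay between -0.01 and 0.03 in every sample, since loess within arrays sets it near 0. Below 0 were 17 of the 20 in mouse 1, 15 in mice 2 and 3, 14 in mouse 4 and 9 in mouse 5. Without mouse 5, 8 of the 30 genes fell (Scap, Insig1, Insig2, Idi1, Cyp51, Hsd17b7, Sc5d and Dhcr7) and Mvk rose, against 6.35% of all genes lower in that fit.

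**Figure D4:**
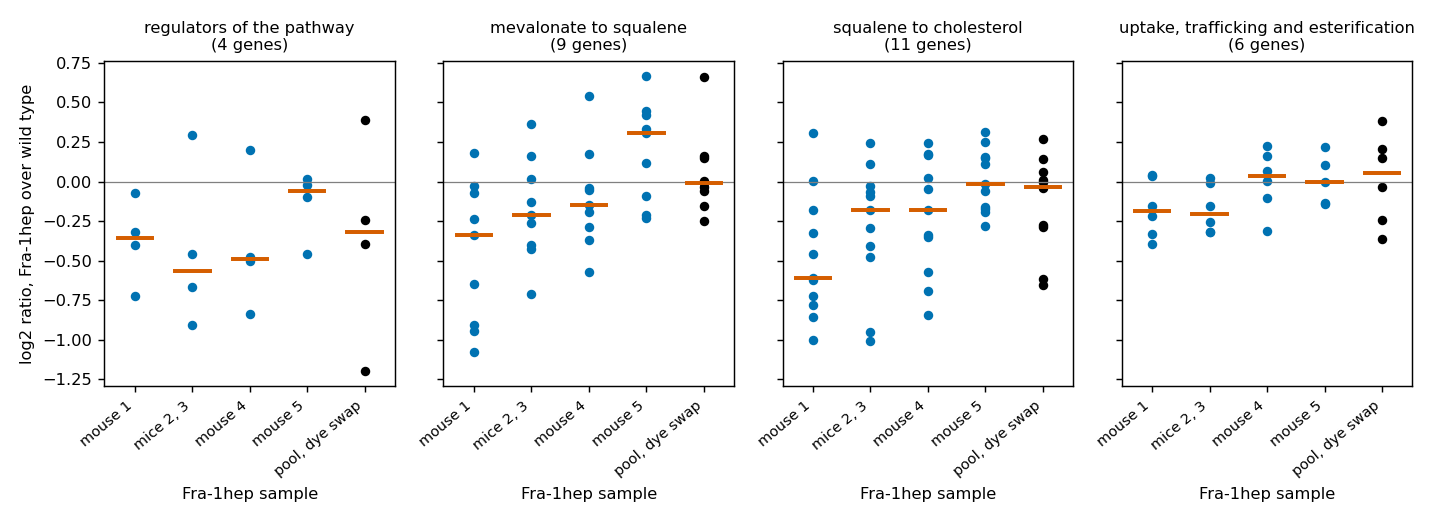
Log2 ratios of Fra-1hep over wild type (y axis) of the cholesterol genes, split by role, in each Fra-1hep sample (x axis; mice 2 and 3 averaged; black, the dye-swapped array of pools). Each point is a gene and each bar the median of its group. In the panels of synthesis enzymes the median is lowest in mouse 1 and highest in mouse 5, while the medians of uptake and trafficking genes lie between -0.21 and 0.06.

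A list for the sister pathway of fatty acid synthesis, driven by SREBP-1c, was set beside these genes by sample. It also holds Tmem97 (0.09) and Pcyt2 (0.07), which do not make fatty acids and did not pass. Of the 20 genes listed, 3 fell (15%, against 6.51% of all genes) and 0 rose. The median of the 20 was -0.79 in mouse 1, -0.62 in mice 2 and 3, -0.76 in mouse 4 and 0.42 in mouse 5. Below 0 were 5 of 20 in mouse 5 and 17 or 18 of 20 in each of the other samples. The 3 were the fatty acid elongase Elovl5 (-0.99, SE 0.24, adjusted p = 0.0367), the desaturase Fads2 (-0.40, SE 0.10, adjusted p = 0.0448) and the mitochondrial citrate carrier Slc25a1 (-0.31, SE 0.08, adjusted p = 0.0488), and their calls were lost in 8, 8 and 9 of 18 alternatives. The medians of hepatocyte markers were 0.07 to 0.28 in the mice and -0.22 on the dye-swapped array, with mouse 5 lowest of the mice, and their part in the spread was not tested.

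The mice and the dye-swapped array differed over much of the list. For 23 of the 30 genes (76.7%) the ratio was lower in the mice than on the dye-swapped array, against 45.2% of all genes tested. The difference, mean of mice minus dye-swapped array, was -0.68 for Soat1, -0.67 for Dhcr7, -0.49 for Idi1, -0.37 for Sqle and -0.35 for Mvd, and in the other direction 0.64 for Insig2, 0.55 for Ebp and 0.30 for Cyp51. A dye effect of a probe and a difference between the pool and the single mice cannot be told apart here.

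With the mouse arrays alone and no dye term, 11 of the 30 genes were lower (against 11.5% of all genes) and 2 higher (against 15.1% of all genes), and dye and genotype are then confounded. The 11 were Scap, Insig1, Insig2, Idi1, Fdft1, Lss, Cyp51, Hsd17b7, Sc5d, Dhcr7 and Soat1, and the 2 were Mvk and Ebp. Ebp (0.26) and Soat1 (-0.30) there had the opposite sign to that in the fit over both orientations.

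**Figure D5:**
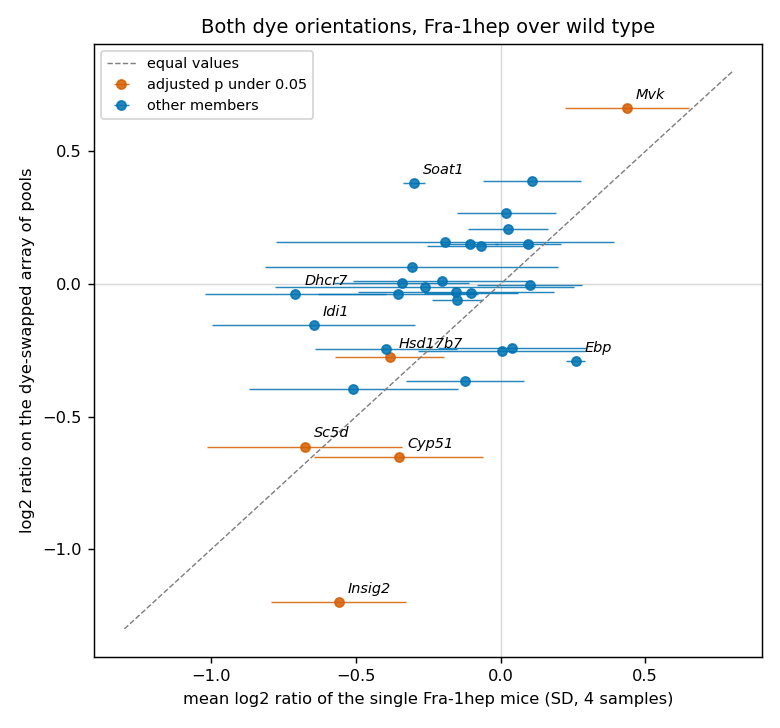
Mean log2 ratio of the single Fra-1hep mice (x axis, bars give the SD over 4 samples, 3 for Soat1) against the log2 ratio on the dye-swapped array of pools (y axis, Fra-1hep over wild type, 1 array, no error) for the 30 cholesterol genes. Above the line of equal values lie 23 genes and below it 7, with Insig2, Ebp and Cyp51 furthest below; genes with an adjusted p under 0.05 are in orange.

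Further probes were kept for 11 of the 30 genes, and 7 of these 11 had the sign of the brightest probe. The changed Insig2 and Mvk were the 2 whose further probe passed as well, against 11.6% of 30110 single probes. The 4 with the opposite sign were Srebf2, Ggps1, Fdft1 and Tm7sf2, which did not pass on either probe.

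Neighbouring genes of the pathway were read from further lists, and their counts stand beside 5.97% of all genes higher and 6.51% lower. Of 12 tested genes of sterol sensing and SREBP processing, among them the proteases Mbtps1 (-0.01) and Mbtps2 (-0.06) that cut SREBP, 0 passed; the LXR gene Nr1h3 was at -0.24 (adjusted p = 0.0662). Of 15 genes of isoprenoid side branches, 1 rose, Pdss2, which builds the tail of ubiquinone (0.23, SE 0.06, adjusted p = 0.0452); its further probe gave -0.02. Of 13 genes of lipoprotein uptake and lysosomal release, Lipa, the lysosomal lipase that frees cholesterol from its esters, rose (0.28, SE 0.07, adjusted p = 0.0404) and the lysosomal membrane protein gene Scarb2 fell (-0.23, SE 0.06, adjusted p = 0.0419). These 3 small changes lost their call in 14, 5 and 9 of 18 alternatives for Pdss2, Lipa and Scarb2.

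Of 18 genes of sterol transfer, 2 rose. Osbpl3, an oxysterol-binding protein homologue that works at membrane contacts, stood 5.28-fold above wild type (log2 2.40, SE 0.13, n = 4, adjusted p = 9.08e-05). Its ratio was 2.50, 2.48, 2.41, 2.34 and 1.77 in mice 1 to 5 and 2.54 on the dye-swapped array, so all 6 arrays were high, and a further probe gave 2.40 as well. The 8 other tested members of its family and the Aster sterol carriers Gramd1a, Gramd1b and Gramd1c did not pass, with estimates from -0.10 to 0.22. Of 10 neutrophil markers, 9 rose, with sample medians of 1.02 to 3.06 in the mice and 2.58 on the dye-swapped array. Of the 10, 8 were above background on all 6 arrays in both channels; Cxcr2, counted among the 9, was above background on 5 arrays for Fra-1hep RNA and on 0 for wild-type RNA, so it was tested only through the group where it is high. The part of neutrophils in the value of Osbpl3 was not tested. Anxa6 rose slightly (0.23, SE 0.06, adjusted p = 0.0449) and lost its call in 10 of 18 alternatives.

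Of 9 genes of oxysterol formation and ester turnover, 4 fell (44.4%, against 6.51% of all genes) and 0 rose. Cyp7b1, the oxysterol hydroxylase of the acidic bile acid route, was at -0.23, -1.24, -1.22, -1.32 and -0.94 in mice 1 to 5 and -0.60 on the dye-swapped array (-0.76, SE 0.18, adjusted p = 0.0329), with mouse 1 nearest to 0, and its call was lost in 7 of 18 alternatives. Hsd3b7, a steroid dehydrogenase of bile acid synthesis, was 1.65-fold lower (-0.72, SE 0.11, adjusted p = 0.00711) and kept its call in all 18. The ester hydrolase genes Nceh1 (-0.54, SE 0.10, adjusted p = 0.0122) and Ces1d (-0.43, SE 0.09, adjusted p = 0.0195) fell and were below 0 on all 6 arrays, with calls lost in 2 and 3 of 18. Markers of some other liver cells were lower as well, against 6.51% of all genes. Beside the macrophage list (median -0.58), 8 of 10 endothelial markers fell (median -0.44) and 6 of 9 markers of T and NK cells fell (median -0.33). Of these 9 markers, 7 were above background on all 6 arrays in both channels. Cd8a, counted among the 6, was above background on 1 array for Fra-1hep RNA and on 4 for wild-type RNA. It was therefore tested only through the group where it is high. Of 7 markers of bile duct cells (cholangiocytes), 2 rose and 0 fell (median 0.19). Of 10 markers of stellate cells and fibroblasts, 1 rose and 1 fell (median -0.08). The part of all these cells in the values of the genes above was not tested. Cyp27a1, the mitochondrial sterol hydroxylase, did not pass (-0.21, adjusted p = 0.176).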

How the data were processed

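Agilent 2-colour arrays were read with Feature Extraction (per the file headers, version 10.7.3.1; the submitters' processing notes give 10.7). Per the file headers, the deposited files give median spot and background intensity, a processed intensity (background-subtracted and dye-normalised) and its log10 ratio. A series table deposited by the authors gives those processed signals as log2 ratios, with the dye-swapped array turned (medians -0.18 to 0.06, not centred); it equalled the scanner values (median difference up to 1.73e-07). The array design is on mm9 per 5 file headers. The number of arrays limits the precision.

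Background was corrected by normexp (offset 50) and ratios by loess within arrays (limma 3.58.1, R 4.3.3), with control and outlier spots at weight 0. Of 55681 probes, 26056 had 1 symbol through the RefSeq accession (GRCm38.p6); 30110 probes well above background on at least 3 arrays in either genotype's channel were kept, and the brightest probe stood for a gene. limma fitted genotype and dye over 4 mouse samples (mice 2 and 3 averaged) and the dye-swapped array, 2-sided, with Benjamini-Hochberg adjustment over 22848 genes. Probes without a symbol were grouped by accession and counted as genes. Every share, median or quartile over all genes tested therefore includes them, whereas all 30 cholesterol genes have a symbol. The fit had 3 residual and 4.67 prior degrees of freedom. The residual spread is that between the mouse samples, and for the SE limma draws it towards the spread over all genes. The dye-swapped array is taken to vary as a mouse sample does. The dye-swapped array has as much weight as all mice. The fit was tested on simulated data. Genes and lists were chosen with earlier results of these data known; all 30 genes and every gene of the pathway lists that passed are named. Array values are given for those of the 30 that passed or reached 1.5-fold and for 3 paralogue pairs. Array values of Hmgcs1, Mvd, Idi1, Dhcr7, Sqle, Osbpl3 and Cyp7b1, and the names Mbtps1, Mbtps2, Nr1h3, Cyp27a1 and the Gramd1 genes, were added after their values were seen.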

Additional observations from a re-analysis of the deposited data

Results flagged for a closer look

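The sample of mice 2 and 3 stood apart from the other Fra-1hep samples in Insig2, at -0.91 on the log2 scale, with the nearest sample, mouse 4, at -0.48. The dye-swapped array of pools was at -1.20. In Ebp, mouse 1 was at 0.31, with the nearest sample at 0.25, within a range of 0.24 to 0.31. By Dixon's ratio, 2 of 29 cholesterol genes (6.90%) had a sample this far from the rest, against 5.24% of all 22826 genes, and chance alone marks about 1 gene in 20.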

How the results depend on the processing

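The estimates and calls of the 30 genes and of the 12 pathway genes that passed were recomputed under 18 alternatives (14 for Soat1). The counts of the 30 genes and of all genes called were recomputed as well. Of the alternatives, leaving out mice 2 and 3 together was chosen after seeing the data. The spread between mice, the order and medians of the samples and the difference from the dye-swapped array were not recomputed. Nor were the counts in the pathway and marker lists. The Agilent processed signals and the deposited table count as 2 of the 18 but hold nearly the same values. Insig2 fell (-0.91 to -0.56) and Mvk rose (0.44 to 0.70) with an adjusted p under 0.05 in all 18. Against 4 genes lower, and 6.51% of all genes lower, the count was 1 from the Agilent processed signals and 1 from the deposited table (3.47% of all genes lower and 1545 changed in each, against 2851). It was 2 with a normexp offset of 10 (5.27% of all genes lower), 2 with median centring (3.65%) and 2 without mice 2 and 3 together (4.83%). It was 8 without a dye term (10.1%, 4787 changed) and 11 with mouse arrays alone (11.5%, 6099 changed, 2 of the 30 higher). Leaving out 1 mouse at a time gave from 3 genes lower without mouse 4 (5.26% of all genes) to 8 without mouse 5 (6.35%). It gave 4 without mouse 1 (6.07%), mouse 2 (6.18%) or mouse 3 (6.08%). Where mouse 2 or mouse 3 was left out, the other stood for their averaged sample, so no sample was lost. Median centring turned the split of all calls to 2467 higher and 833 lower, or 74.8% higher against 47.8%. Of 536 values of the 30 genes, 505 kept their side of the threshold, 13 lost and 16 gained a call, and 2 turned sign with a call (Ebp 0.26 and Soat1 -0.30, mouse arrays alone); 27 uncalled values changed sign. The cause was not tested. With slide as a random block 5 genes were lower (7.84% of all genes). Each ratio sets Fra-1hep RNA against the wild-type pool on the same array. Single mice could not be paired with single controls, because the controls are 1 pool. The error of the wild-type pool and of the dye-swapped array is not estimated.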
